A study of Bos grunniens x Bos taurus and Bos grunniens with 6 samples.

Results

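Cyclins, the cyclin-dependent kinases (CDKs) they activate, the CDK inhibitors and the CDC25 phosphatases were examined in the testis of cattle-yak and yak. The members were taken by gene symbol, as every row named CCN and a letter, CDK and a number, CDKL and a number, CDKN and a number with a letter, or CDC25A to CDC25C, whatever the case of the letters. In all, 58 of the 18918 rows of the expression table were members. They carried 56 symbols, since CCNB2 and CCNC each stood on 2 rows, and the values of rows that share a symbol are uncertain because fragments may have been divided between copies. Symbols are spelled as in the table, where Ccna1 or Cdk5 in mixed case means nothing more than CCNA1 or CDK5.

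Cell-cycle genes with roles in germ cells, called germ-line here, were set beside those of ordinary divisions. The question was how both differed between a sterile male hybrid and its maternal species. The name germ-line does not mean restricted to germ cells, since CDK2 and E-type cyclins also carry ordinary cycles through DNA replication. Nor does mitotic, the name of the other list, mean absent from meiosis. CCNB2 of that list, for example, carries the term Oocyte meiosis in the deposited annotation. Cattle-yak (libraries TES5, TES6 and TES7) were first-generation males of a Jersey cattle sire and a Gannan yak dam, kept in Xiahe County. Yak (libraries Yak8, Yak9 and Yak10) were Gannan males from Linxia County. Every animal was 4 years old and gave 1 library of testis tissue, and the labels name no treatment besides castration. The treatment label says that all testes were obtained by castration, whereas the methods of the study give castration for cattle-yak and euthanasia for yak. County, origin of the tissue and genotype coincided with the groups and cannot be told apart.

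A cyclin binds a CDK and switches it on, and its name comes from its rise and destruction during each division. D-type cyclins with CDK4 and CDK6 start the cycle, E-type and A-type cyclins with CDK2 carry it through DNA replication, and A-type and B-type cyclins with CDK1 bring the cell into division. WEE1-type kinases and the CDC25 phosphatases put on and take off the phosphates that hold CDKs inactive, and inhibitors of the CDKN1 and CDKN2 families block them. In the testis, spermatogonia multiply by mitosis, spermatocytes pass through meiosis and spermatids no longer divide. Cyclin A1 is the A-type cyclin of the male germ line and is needed for spermatocytes to enter the meiotic divisions, CDK2 is needed in meiotic prophase, and CDK16 with cyclin Y is needed for normal sperm. A further set of cyclins and CDKs, among them CDK9 with T-type cyclins, controls transcription and splicing instead of division.

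The deposited values are FPKM, fragments relative to the length of the gene and the depth of the library, so levels of different genes can be compared per length. They rested on 11175100 to 11834987 fragments on genes in cattle-yak and 12991641 to 13136129 in yak, so that 1 fragment on a gene of 1 kb was worth 0.0761 to 0.0895 FPKM. Genes with a mean of at least 0.5 FPKM over the 6 libraries were tested, 15042 in all and 55 of the 58 members. The test was limma on log2 (FPKM + 1), two-sided, and calls required both an adjusted p (Benjamini-Hochberg) under 0.05 and a log2 (foldchange) past 1 either way, which is always given as cattle-yak minus yak. For genes of low FPKM the added 1 makes this value smaller than the true change. P-values measured the spread between 3 animals per group, and ± is the SD.

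All genes together did not centre on 0. The median log2 (foldchange) of the 15042 tested genes was 0.51 in the values as deposited, 0.53 after scaling each library to the same sum (TPM), 0.01 after median-of-ratios scaling, and -1.74 after centring each library on genes of Sertoli cells, the somatic nurse cells of the tubules. The centring subtracted the same amount of log2 (FPKM + 1) from all genes of a library, so it shifted every log2 (foldchange) equally. For genes of low FPKM, such as CDKN1C, this shift is larger than a scaling of the FPKM would give. The level of any single member thus depended on the scaling, while ratios of FPKM between members within a library did not. Differences of log2 (foldchange) between members can move with the scaling, because of the added 1.

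Marker genes of testis cell types were present in both groups and differed in level. Counts here are of rows, since CLU, CRISP2 and OAZ3 stood on 2 rows each and CYP17A1 on 3. Of the Sertoli cell markers, 13 of 13 tested were called higher in cattle-yak, with summed levels of 2709 to 2860 FPKM against 535 to 617 in yak, although GATA1 was at 0 in the cattle-yak libraries. Spermatogonium markers were called higher for 8 of 10, at 769 to 971 against 187 to 255 FPKM. DMRT1 alone held 422 to 561 and 100 to 154 FPKM of these sums, and Gfra1 and NANOS2, both of low FPKM, were not called. Spermatocyte markers summed to 194 to 314 against 332 to 357 FPKM, with 1 of 8 called higher and 1 lower. The lower sum rested on Piwil1, the marker called lower, at means of 15.7 FPKM in cattle-yak against 148 in yak. SYCP3 was called higher, at 91.0 against 40.7 FPKM, and of the 8 markers 4 lay above 0 and 4 below. The sum therefore does not stand for the whole list. Round spermatid markers were called lower for 7 of 8, at 9.86 to 55.4 against 2818 to 3626 FPKM. Elongating spermatid markers were called lower for 7 of 7, at 19.99 to 87.0 against 9414 to 11518 FPKM. All 8 rows of the 6 Leydig cell markers and all 7 peritubular myoid markers were called higher, endothelial markers had 4 higher and 1 lower of 7, and macrophage markers 2 higher and 2 lower of 5. The median log2 (foldchange) of the spermatogonium, Leydig and myoid lists was 1.80, 1.90 and 1.92 as deposited and became -0.45, -0.35 and -0.33 when libraries were centred on the Sertoli markers. From RNA of whole tissue alone, fewer cells of a type and less RNA per cell cannot be told apart. In its tissue sections the study found no round spermatids or sperm in cattle-yak tubules, and fewer spermatogonia and spermatocytes than in yak. How far these cell numbers account for the marker levels was not tested.

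Members were called in both directions. Of the 55 tested members, 13 were called higher in cattle-yak, 9 lower and 33 neither, and with median-of-ratios scaling 6 were higher and 12 lower. Among all tested genes 54.2% were called, 33.4% higher and 20.8% lower, and with median-of-ratios scaling 17.7% were higher and 27.7% lower. These shares are the background for the counts of each list below. The groups did not overlap for 42 of the 55 members, against 84.1% of all tested genes. The median log2 (foldchange) of the members was 0.48 as deposited and -0.08 with median-of-ratios scaling, which turned 12 members from above 0 to below it. After centring on the Sertoli markers, limma called 0 members higher and 48 lower, where 0.186% of all tested genes were higher and 74.4% lower. Under that scaling 0 members were higher at an unadjusted p under 0.05, and CCNG1 and CDKN1B alone stayed above 0. As deposited, neither count was a larger share of the members than of all tested genes.

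The 9 members called lower were Ccna1, CDKN2C, CDKN2D, CCNB2, Ccny, CDKL2, CDKL3, Cdkl4 and Cdk15, and all 9 were called lower in each scaling and each omission of a library. Median-of-ratios scaling and Sertoli centring lowered every log2 (foldchange), and TPM scaling moved them little. For lower calls, agreement over the scalings was thus largely fixed in advance and is no support. The 13 called higher were CCNB3, CCND3, Cdc25b, CCNC, CCNT2, Ccnl2, Ccnq, CCNG1, CCNG2, CDK3, Cdk5, CDKN1A and CDKN1B. Of these, CCNB3, CCND3, CCNG1, CCNG2, Cdk5 and CDKN1B were also called with median-of-ratios scaling. Leaving out a single library ended the call of CCNC (0.997 without TES7 and 0.984 without Yak8), of CCNT2 (0.951 without TES6) and of CDK3 (0.950 without TES6), all just under a log2 (foldchange) of 1. The other 19 calls were kept in each of the 6 omissions.

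**Figure D1:**
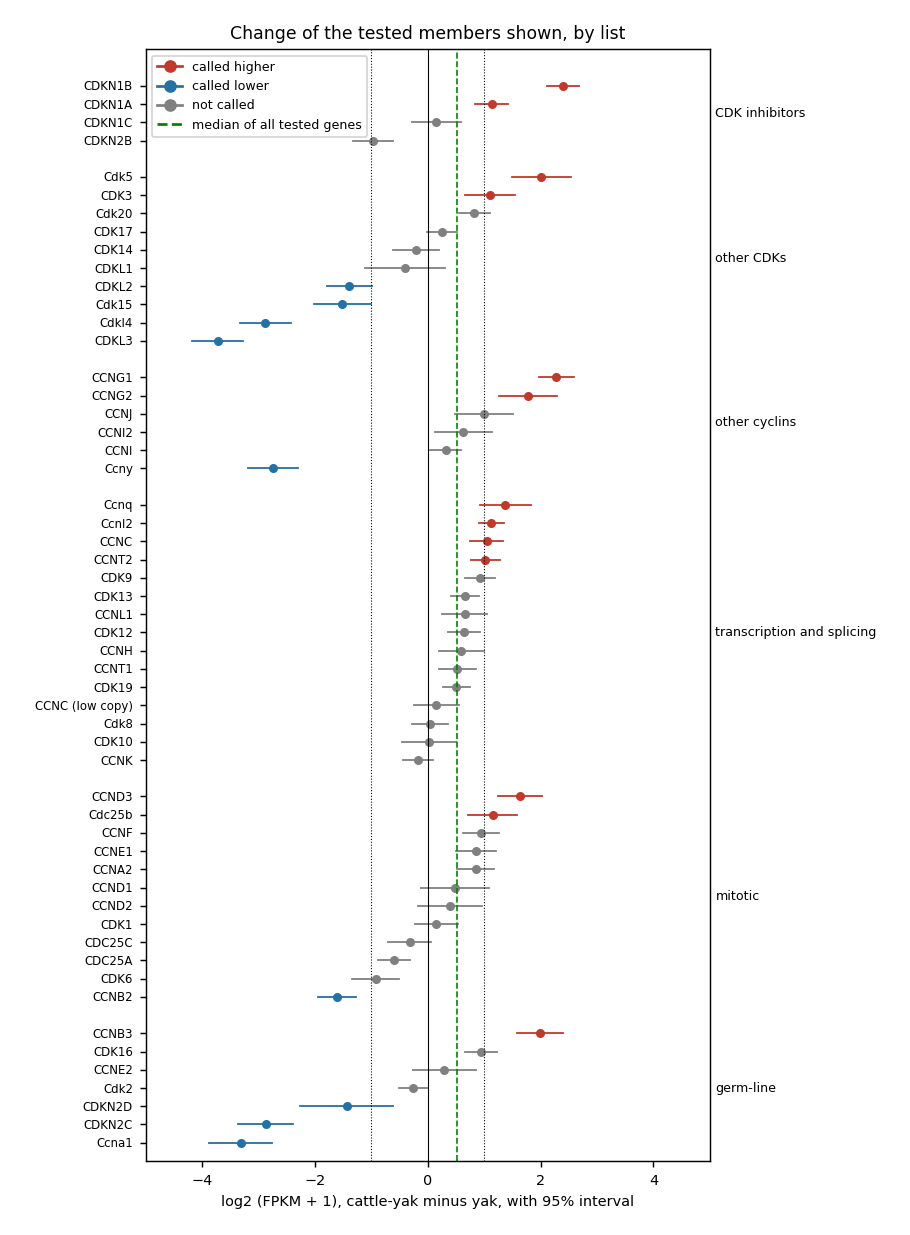
Log2 (foldchange) of 54 of the 55 tested members on the log2 (FPKM + 1) scale, cattle-yak minus yak, with 95% intervals from limma, grouped by role. Red members were called higher (13), blue lower (9) and grey neither (32 shown); dotted lines mark the threshold of 1 and the green dashed line the median of all tested genes, 0.51.

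The germ-line members moved apart from each other. Of the 7, Ccna1, CDKN2C and CDKN2D were called lower in cattle-yak, CCNB3 was called higher, and CCNE2, Cdk2 and CDK16 were not called. Their median log2 (foldchange) was -0.26 as deposited, -0.87 with median-of-ratios scaling and -2.51 centred on the Sertoli markers.

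Ccna1 (ENSBGRG00000020675), cyclin A1 of the male germ line, measured 9.54, 6.52 and 4.49 FPKM in TES5, TES6 and TES7 and 72.1, 91.2 and 62.5 FPKM in Yak8, Yak9 and Yak10. The groups were far apart, and TES5 was the highest of the cattle-yak. The mean was 6.85 ± 2.54 FPKM in cattle-yak and 75.3 ± 14.6 in yak (n = 3 each), an 11.0-fold difference. The log2 (foldchange) was -3.31 (SE 0.24, limma adjusted p = 4.7e-06). In yak Ccna1 held rank 3 among the 58 members by mean FPKM, and in cattle-yak rank 39.

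CDKN2C (ENSBGRG00000007727), an INK4 inhibitor that binds CDK4 and CDK6, measured 13.4, 9.37 and 6.49 FPKM in cattle-yak and 74.1, 77.9 and 72.8 FPKM in yak, in the order of libraries given above. Its yak libraries lay close together and its cattle-yak libraries spread over a wider relative range. The mean fell 7.69-fold, from 74.9 ± 2.64 FPKM in yak to 9.74 ± 3.46 in cattle-yak, with a log2 (foldchange) of -2.87 (SE 0.21, limma adjusted p = 5.3e-06). CDKN2D (ENSBGRG00000003538), the related INK4 inhibitor, measured 20.7, 9.49 and 14.6 FPKM in cattle-yak and 43.9, 61.6 and 24.0 in yak. The groups did not overlap but came close, since Yak10 stood well below the other yak and near TES5. The log2 (foldchange) was -1.44 (SE 0.36, limma adjusted p = 0.0057).

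CCNB3 (ENSBGRG00000025534), a B-type cyclin found in early meiotic prophase, ran the other way. It measured 18.8, 24.0 and 26.3 FPKM in cattle-yak and 3.91, 5.75 and 5.45 in yak. The means were 23.0 ± 3.85 and 5.04 ± 0.986 FPKM, a 4.57-fold difference with a log2 (foldchange) of 1.99 (SE 0.18, limma adjusted p = 1.4e-05). It was called higher with median-of-ratios scaling too, at 1.43, but lay at -0.26 when centred on the Sertoli markers. Each cattle-yak library lay well above each yak library.

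The remaining germ-line members differed by less. CDK16 (ENSBGRG00000013811), the kinase that cyclin Y activates, measured 37.3, 38.8 and 36.8 FPKM in cattle-yak and 16.1, 20.1 and 21.3 in yak. Its groups did not overlap and its log2 (foldchange) of 0.95 (SE 0.12, limma adjusted p = 1.3e-04) stayed just under the threshold of 1, which it passed without Yak10 at 1.02. Cdk2 (ENSBGRG00000000696) measured 53.3, 46.8 and 44.9 FPKM in cattle-yak and 61.6, 58.6 and 53.9 in yak, so that the highest cattle-yak library nearly met the lowest yak library. Its log2 (foldchange) was -0.26 (SE 0.11, adjusted p = 0.047, limma), and it held rank 7 among the members in both groups. CCNE2 (ENSBGRG00000006166), an E-type partner of CDK2, measured 19.0, 10.1 and 20.4 FPKM in cattle-yak and 12.6, 11.5 and 14.1 in yak. These groups overlapped, with TES6 below the 3 yak, and the log2 (foldchange) of 0.30 had a 95% interval from -0.26 to 0.85.

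**Figure D2:**
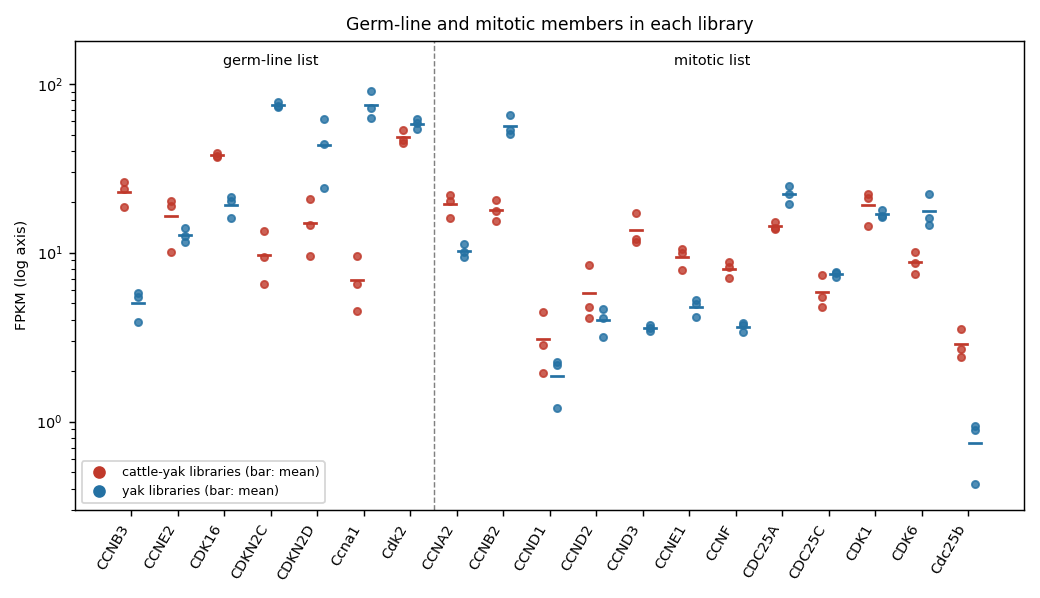
FPKM of the germ-line members (left of the dashed line) and the tested mitotic members (right) in each library on a log axis, with cattle-yak in red, yak in blue and bars at the group means. Ccna1 and CDKN2C sat between 4.49 and 13.4 FPKM in the cattle-yak libraries, against 62.5 to 91.2 in those of yak, while CCNB3 and CCND3 were higher in each cattle-yak library than in any yak library.

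Most of the mitotic members were not called. Of 13 rows 12 were tested, and CCND3 and Cdc25b were called higher, CCNB2 was called lower and 9 were neither. The median log2 (foldchange) was 0.44 as deposited, below the 0.51 of all tested genes, and it turned to -0.02 with median-of-ratios scaling and to -1.81 with Sertoli centring. The median of the germ-line list lay 0.70 below that of the mitotic list, and this difference ran from -0.85 to -0.41 over the 14 other settings. The germ-line median was the value of Cdk2 (-0.26), and the mitotic median lay midway between CCND1 (0.48) and CCND2 (0.40), none of which was called. The difference is a description of 7 and 12 genes chosen by name, with no test.

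The D-type cyclins, which start the cycle with CDK4 or CDK6, did not share one pattern. CCND3 (ENSBGRG00000022113) measured 11.6, 17.1 and 11.97 FPKM in cattle-yak and 3.74, 3.59 and 3.45 in yak, and its lowest cattle-yak library was far above the yak. The log2 (foldchange) was 1.64 (SE 0.17, limma adjusted p = 3.3e-05). CCND1 measured 4.48, 2.83 and 1.95 FPKM against 2.15, 1.21 and 2.26, with a log2 (foldchange) of 0.48 and a 95% interval from -0.12 to 1.08. CCND2 measured 4.12, 8.43 and 4.74 FPKM against 4.65, 3.17 and 4.10, with 0.40 and an interval from -0.17 to 0.97. For both of these the groups overlapped, and TES5 held the highest CCND1 and TES6 the highest CCND2. CDK6, their kinase, measured 7.49, 8.64 and 10.1 FPKM in cattle-yak and 14.6, 22.2 and 15.998 in yak without overlap. Its log2 (foldchange) of -0.92 (SE 0.18, limma adjusted p = 0.0015) lay under the threshold, passed it at -1.02 without TES7 and at -1.03 without Yak8, and was called with median-of-ratios scaling at -1.49.

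Among the cyclins of DNA replication, CCNE1, an E-type partner of CDK2, measured 10.5, 7.93 and 9.96 FPKM in cattle-yak and 4.18, 4.95 and 5.24 in yak. CCNA2, the A-type cyclin of dividing body cells, measured 20.1, 16.1 and 21.9 FPKM against 10.1, 11.2 and 9.47. Neither pair of groups overlapped, and both log2 (foldchange) values were 0.85, under the threshold (limma adjusted p = 9.4e-04 for CCNE1 and 6.4e-04 for CCNA2). CCNF, the F-box cyclin that marks proteins for destruction in late cycle, measured 8.20, 7.10 and 8.76 FPKM against 3.75, 3.82 and 3.38. Its log2 (foldchange) of 0.95 (SE 0.14) passed the threshold without TES6, at 1.03.

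The genes of entry into division split. CDK1, the kinase of mitosis, measured 21.0, 14.4 and 22.2 FPKM in cattle-yak and 16.3, 16.5 and 18.0 in yak, and the groups overlapped because TES6 lay below the yak. Its log2 (foldchange) was 0.15, with an interval from -0.23 to 0.53. CCNB2 (ENSBGRG00000009460), a B-type partner of CDK1, measured 20.5, 15.3 and 17.7 FPKM in cattle-yak and 53.1, 65.3 and 50.5 in yak. The highest cattle-yak library held less than the lowest yak library by a wide margin, and the log2 (foldchange) was -1.60 (SE 0.14, limma adjusted p = 1.5e-05). The other row of CCNB2 (ENSBGRG00000015864) held 0 fragments in cattle-yak and 1, 1 and 0 in yak and was not tested.

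The CDC25 phosphatases, which release CDKs from inhibition, each behaved differently. Cdc25b measured 2.42, 3.52 and 2.70 FPKM in cattle-yak and 0.937, 0.424 and 0.886 in yak, and was called higher at 1.15 (SE 0.19, limma adjusted p = 5.5e-04), though not with median-of-ratios scaling at 0.79. CDC25A measured 13.7, 15.1 and 14.0 FPKM against 22.2, 25.0 and 19.4. Its log2 (foldchange) of -0.59 (SE 0.12, limma adjusted p = 0.0021) lay under the threshold, and at -1.18 it was called lower with median-of-ratios scaling. CDC25C measured 7.35, 4.78 and 5.45 FPKM against 7.64, 7.17 and 7.61, where TES5 met the yak range, with a log2 (foldchange) of -0.32 and an interval from -0.70 to 0.06.

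Ratios of related members within a library were planned for 7 pairs. CCNB3 to CCNB1 and CDK6 to CDK4 were not computed, because CCNB1 and CDK4 were not analysed here. Ratios were compared for the other 5 pairs, and the largest difference among the 5 was that of the A-type cyclins. A scaling of libraries can move these ratios only through the small value added to each FPKM. The ratio of CCNA1 to CCNA2, taken on FPKM + 0.1, was 0.477, 0.409 and 0.209 in TES5, TES6 and TES7 and 7.10, 8.07 and 6.54 in Yak8, Yak9 and Yak10. Cyclin A2 was thus the more abundant of the pair in each cattle-yak library and cyclin A1 in each yak library. The difference of the mean log2 ratios was -4.39. In an exact permutation test over the 6 libraries, two-sided, p was 0.1, the smallest that 3 against 3 allows, and 0.167 after adjustment over the 5 pairs compared.

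The ratio of CCNE2 to CCNE1 was 1.79, 1.27 and 2.04 in cattle-yak and 2.96, 2.30 and 2.65 in yak, a log2 difference of -0.65 (exact permutation p = 0.1, adjusted 0.167). CCNE2 was the more abundant E-type cyclin in all 6 libraries. The ratio of CDKN2D to CDKN2C was 1.54, 1.01 and 2.23 in cattle-yak and 0.593, 0.791 and 0.330 in yak, with a log2 difference of 1.497 (exact permutation p = 0.1, adjusted 0.167). Cdk2 exceeded CDK1 2.02 to 3.23 times in cattle-yak, against 2.98 to 3.76 times in yak, and these ranges overlapped (difference -0.42, exact permutation p = 0.2, adjusted 0.25). CCND1 to CCND2 overlapped as well, with a log2 difference of 0.19 (exact permutation p = 0.9) that turned to -0.31 without TES5. With these numbers of animals no pair could pass the threshold.

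**Figure D3:**
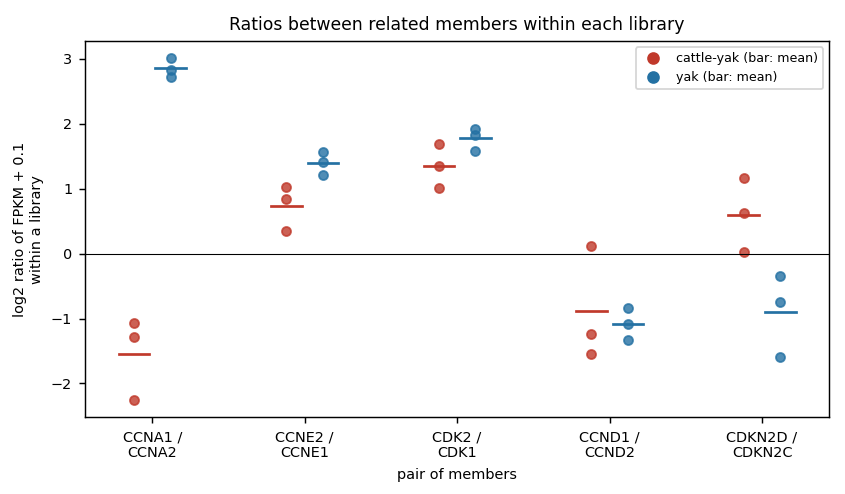
Log2 ratio of FPKM + 0.1 of 5 pairs of members within each library, with cattle-yak in red, yak in blue and bars at the group means. CCNA1 to CCNA2 lay below 0 in the 3 cattle-yak libraries and above 0 in the 3 yak, with a difference of -4.39, whereas CDK2 to CDK1 and CCND1 to CCND2 overlapped.

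Outside these lists, cyclin Y held the largest values in yak and rank 4 among the members in cattle-yak, below CCNG1, CCNI and CDKN1A. Ccny (ENSBGRG00000014486), a membrane-bound cyclin that activates CDK16, measured 77.5, 65.5 and 61.8 FPKM in cattle-yak and 571, 512 and 338 in yak. It was the most abundant member in each yak library, where it made up 24.1% to 34.4% of the summed FPKM of the members, and Yak10 stood below the other yak. The mean of 68.3 ± 8.18 FPKM in cattle-yak was 6.94-fold below the 474 ± 121 FPKM of yak, with a log2 (foldchange) of -2.75 (SE 0.19, limma adjusted p = 3.9e-06). CDK16, its kinase, had a log2 (foldchange) of 0.95, so the ratio of CCNY to CDK16 within a library was 1.68 to 2.07 in cattle-yak, against 15.8 to 35.2 in yak. This ratio was chosen after its values were seen and has no test.

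The other 6 rows of the further cyclins were CCNG1, CCNG2, CCNI, CCNI2, CCNJ and CCNO. CCNG1 (ENSBGRG00000000900), a cyclin induced by p53, measured 106, 113 and 146 FPKM in cattle-yak and 24.4, 25.1 and 22.6 in yak. It was the most abundant member in TES6 and TES7, and its log2 (foldchange) was 2.28 (SE 0.13, limma adjusted p = 1.5e-06), 1.67 with median-of-ratios scaling and 0.03 centred on the Sertoli markers. CCNG2 measured 4.52, 8.05 and 5.83 FPKM against 1.40, 0.686 and 1.12, without overlap, with a log2 (foldchange) of 1.77 (SE 0.22, limma adjusted p = 1.1e-04). CCNI was the most abundant member in TES5 and rank 2 in yak, at means of 117 and 93.7 FPKM and a log2 (foldchange) of 0.32. CCNJ lay at 0.998, just under the threshold, and passed it without TES5 (1.02) or without Yak10 (1.23), and CCNI2 lay at 0.63. A pseudocount of 0.1 and limma-voom each gave 16 members higher and 10 lower, adding CCNF, CCNJ, CDKN2B and CCNI2, the last at 1.53 and 1.80. Limma-voom also called more of the 15042 tested genes, 5966 higher and 3416 lower, against 5023 and 3136 as deposited. Neither count of members was a larger share than that of all genes by limma-voom. The counts of all genes with a pseudocount of 0.1 are not given here. CCNO, a cyclin of multiciliated cells, had 2, 0 and 2 fragments in cattle-yak and 0 in each yak library and was not tested.

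The CDK-like kinases contained the largest fold change of any tested member. CDKL3 (ENSBGRG00000001365) measured 3.81, 1.84 and 2.43 FPKM in cattle-yak and 46.8, 42.5 and 50.7 in yak, a 17.3-fold difference. The log2 (foldchange) was -3.72 (SE 0.20, limma adjusted p = 9.5e-07), and the gene went from rank 9 among the members in yak to rank 48 in cattle-yak. Cdkl4 (ENSBGRG00000018560) measured 10.7, 5.58 and 7.46 FPKM against 59.6, 67.3 and 61.3, a 7.94-fold difference with a log2 (foldchange) of -2.88 (SE 0.20, limma adjusted p = 3.4e-06). CDKL2 measured 9.52, 6.77 and 5.86 FPKM against 21.1, 21.7 and 19.0, with a log2 (foldchange) of -1.39 (SE 0.17, limma adjusted p = 9.8e-05). None of these 3 kinases overlapped between the groups. Their relative CDKL1 overlapped between the groups and had a log2 (foldchange) of -0.40 (interval -1.12 to 0.31).

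Of the other CDKs, Cdk5 (ENSBGRG00000005577), a kinase best known from neurons, measured 17.6, 19.5 and 22.02 FPKM in cattle-yak and 2.58, 5.48 and 4.74 in yak. Its groups were well apart, and the log2 (foldchange) was 2.02 (SE 0.23, limma adjusted p = 5.3e-05), 1.47 with median-of-ratios scaling and -0.23 centred on the Sertoli markers. Cdk15, a kinase of the PFTAIRE type, measured 0.365, 0.344 and 0.331 FPKM in cattle-yak, or 9, 8 and 8 fragments, and 4.35, 2.46 and 2.07 FPKM in yak, or 119, 67 and 56 fragments. It was called lower at -1.51 (SE 0.22, limma adjusted p = 2.7e-04), from few fragments in cattle-yak. CDK3 was called higher at 1.11, and CDK14, CDK17 and Cdk20, a kinase of ciliary signalling, were not called, at -0.21, 0.25 and 0.83. CDK18 held 4, 4 and 6 fragments in cattle-yak and 1, 3 and 3 in yak and was not tested. Of the 12 rows 11 were tested, with 2 higher, 4 lower and a median of -0.21. The shares of all tested genes were 33.4% higher and 20.8% lower.

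The transcription and splicing members lay in a narrow range. Of 15 tested rows, 4 were called higher (CCNC, CCNT2, Ccnl2 and Ccnq), and limma called 0 lower, with 0 lower at an unadjusted p under 0.05 and 0 by limma-voom. Among all tested genes 33.4% were higher and 20.8% lower. The log2 (foldchange) of the 15 rows ran from -0.17 for CCNK, which activates CDK12 and CDK13, to 1.38 for Ccnq. Their median of 0.64 became 0.06 with median-of-ratios scaling and -1.61 centred on the Sertoli markers. Ccnq, the activating cyclin of CDK10, measured 5.39, 3.41 and 4.94 FPKM in cattle-yak and 1.07, 0.849 and 1.48 in yak (SE 0.20, limma adjusted p = 2.4e-04). CDK10 itself overlapped between the groups, with a log2 (foldchange) of 0.02 and an interval from -0.46 to 0.49. With median-of-ratios scaling none of the 4 was called and Ccnq lay at 0.96. CDK9, which releases paused RNA polymerase, lay at 0.92 and passed the threshold without Yak8, at 1.02. CCNH, CCNL1, CCNT1, CDK12, CDK13 and CDK19 lay between 0.51 and 0.66, and Cdk8 at 0.04. The rows of CCNC, the cyclin of the Mediator kinases CDK8 and CDK19, had log2 (foldchange) values of 1.04 (ENSBGRG00000026554, 21.0 against 9.70 FPKM) and 0.15 (ENSBGRG00000000219, 0.646 against 0.492 FPKM).

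The CDK inhibitors outside the germ-line list were led by CDKN1B. CDKN1B (ENSBGRG00000000764), an inhibitor of CDK2 complexes found in cells that have left the cycle, measured 33.5, 39.0 and 41.0 FPKM in cattle-yak and 5.72, 6.59 and 6.81 in yak. The difference was 5.94-fold, with a log2 (foldchange) of 2.40 (SE 0.13, limma adjusted p = 9.3e-07), 1.82 with median-of-ratios scaling and 0.15 centred on the Sertoli markers. CDKN1A, an inhibitor induced by p53, was called higher at 1.13 (101 ± 2.23 against 45.8 ± 8.12 FPKM), but not with median-of-ratios scaling at 0.52. CDKN1C lay at 0.15 with overlapping groups. CDKN2B, an INK4 inhibitor, lay at -0.97 (SE 0.15, limma adjusted p = 4.3e-04) with 1.47 ± 0.264 against 3.85 ± 0.377 FPKM, and was called at -1.06 without TES5, at -1.04 without Yak8 and at -1.40 with median-of-ratios scaling. Of these 4 inhibitors 2 were called higher and limma called 0 lower, with 1 lower at an unadjusted p under 0.05 and 1 by limma-voom.

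CDKN1B and CDKN2C, the inhibitors with the largest changes in each direction, exchanged places within a library. The ratio of CDKN2C to CDKN1B was 0.160 to 0.401 in cattle-yak, against 10.6 to 12.7 in yak. CCNB2 to CCNA2, cyclins of late cycle, stood at 0.809 to 1.02 in cattle-yak, against 5.23 to 5.78 in yak. Both ratios were chosen after their values were seen and have no test.

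**Figure D4:**
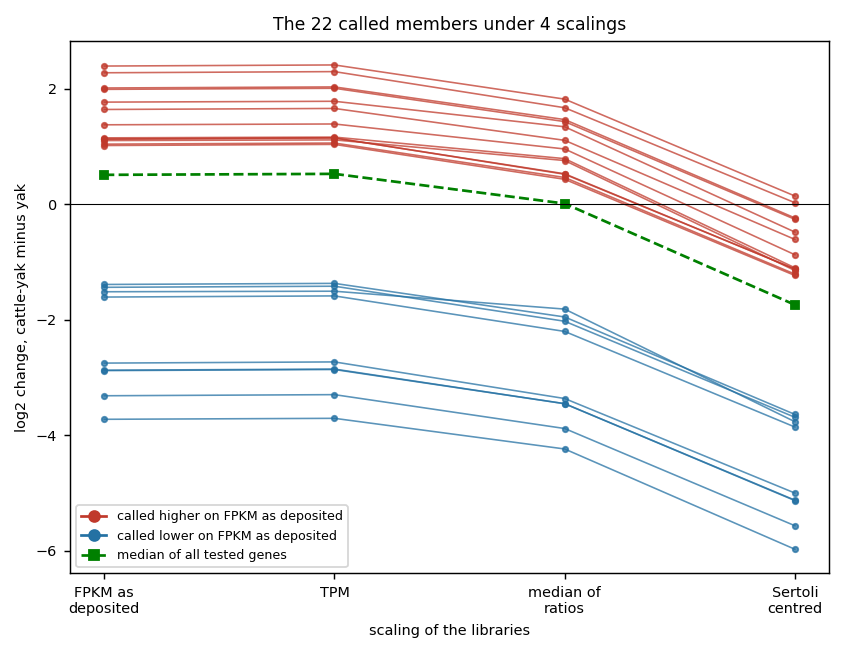
Log2 change of the 22 called members under 4 scalings of the libraries, with members called higher on FPKM as deposited in red, members called lower in blue and the median of all tested genes in green (0.51, 0.53, 0.01 and -1.74). The 9 lower members stayed below 0 under each scaling, where median-of-ratios and Sertoli centring lower every gene. Of the 13 higher members CCNG1 and CDKN1B alone stayed above 0 when libraries were centred on the Sertoli markers.

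The members summed to 1260 to 1307 FPKM per cattle-yak library, against 1403 to 1659 per yak library. Ccny alone, at 61.8 to 77.5 FPKM in cattle-yak against 338 to 571 in yak, set the direction of this difference. The median coefficient of variation of a member between animals was 15.1% in cattle-yak and 12.5% in yak. Within cattle-yak, TES5 held the highest value for 9 of the 9 members called lower, and for 2074 of the 3136 genes called lower in the whole table (66.1%). The summed round spermatid markers were 55.4, 31.1 and 9.86 FPKM and the elongating spermatid markers 87.0, 34.9 and 19.99 FPKM in TES5, TES6 and TES7, also with TES5 highest. The part of spermatid, Sertoli or other cell content in the differences of the members was not tested.

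Genes that act on cyclins and CDKs without being members moved in both directions as well. Of 18 tested regulators of CDK activity, 4 were called higher and 7 lower, against 33.4% and 20.8% of all tested genes, with a median of 0.22. With median-of-ratios scaling limma called 0 higher (6 at an unadjusted p under 0.05, and 5 by limma-voom without that scaling) and 7 lower, against 17.7% and 27.7% of all tested genes, and the median was -0.30. HSP90AB1, a chaperone of kinases, at 1.57 and CDK2AP1, a CDK2-binding protein, at 1.54 led the higher ones and lay at 0.95 and 0.92, not called, with median-of-ratios scaling. CDKN3, a phosphatase that acts on CDKs, at -3.20 and Cntd1, a cyclin-like protein of meiotic crossing over, at -2.25 led the lower ones.

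Of 20 rows of the RB, E2F and DREAM genes, which turn cell-cycle genes on and off, 6 were called higher and 5 lower, around a median of 0.32. These counts stand beside 33.4% and 20.8% of all tested genes. With median-of-ratios scaling 2 were higher and 6 lower, against 17.7% and 27.7% of all tested genes, with a median of -0.26. E2F6, a repressor of germ-line genes, stood on 2 rows at 2.11 and 2.07, uncertain because they share a symbol. Tfdp2, a partner of E2F factors, measured 15.6 ± 1.92 FPKM against 167 ± 25.2 (-3.34), and LIN37, a subunit of DREAM, 24.4 ± 4.55 against 205 ± 8.94 (-3.03).

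Of 27 tested rows for the destruction of cyclins and inhibitors, 7 were called higher and 7 lower, around a median of -0.39. These counts stand beside 33.4% and 20.8% of all tested genes. With median-of-ratios scaling 5 were higher and 12 lower, against 17.7% and 27.7% of all tested genes, with a median of -0.98. UBE2S, a ubiquitin-conjugating enzyme of the anaphase-promoting complex (APC), at 3.70 and SKP1, a subunit of the SCF ligase, at 2.09 led the higher ones, both uncertain because other rows carry the symbol and differ. The more abundant row of UBE2S, at 137 against 169 FPKM, lay at -0.31 and was not called, while the row called held 23.9 against 0.955 FPKM. The other 4 rows of SKP1 lay between 0.25 and 1.41, and the most abundant, at 136 against 76.8 FPKM, lay at 0.82 and was not called. FBXO43, an inhibitor of the APC in meiosis, at -2.07 and CDC20, an activator of the APC, at -2.04 led the lower ones, and CDC20 also stands on 2 rows. Of 12 replication and proliferation genes 5 were called higher, led by MCM3 at 1.43 and CDC6 at 1.29, both of which load the replicative helicase or form it. Limma called 0 of the 12 lower, with 0 at an unadjusted p under 0.05 and 0 by limma-voom. The shares of all tested genes were 33.4% higher and 20.8% lower. With median-of-ratios scaling limma called 0 of the 12 higher (6 at an unadjusted p under 0.05, and 5 by limma-voom without that scaling), so that the 5 calls were lost, and the median of 0.83 became 0.24.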

How the data were processed

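Testis RNA of 3 cattle-yak and 3 yak, all 4 years old, was sequenced by the authors as stranded poly(A) libraries with 150 bp paired-end reads. Per the study's methods, reads were trimmed with Trimmomatic and mapped with HISAT2 to the yak assembly LU_Bosgru_v3.0 for both groups, and FPKM were made with Cufflinks. The FPKM as deposited by the authors are not scaled between libraries. How the cattle alleles of the hybrid map to a yak assembly was not tested. Gene sequences and coordinates were not used here.

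The table held 18918 genes, 1026 without a symbol. Whole fragments, within 0.03, were recovered from the FPKM of 17973 genes, and the other 945 had 1 value above 0. The 15042 genes whose mean reached 0.5 FPKM were tested with limma 3.58.1 in R 4.3.3 (trend in the prior variance) on log2 (FPKM + 1). On simulated data for this comparison with 14615 genes, 192 of 200 genes changed 4-fold were called, each in the right direction, besides 4 unchanged genes. The changed genes were drawn from those with ample fragments, and the simulation held no shift of all genes between the groups. It therefore cannot show how scaling affects the calls. Ratios used FPKM + 0.1 and exact permutation tests (scipy 1.17.1, Python 3.11.15).

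The members and lists were chosen with earlier results of these data known. The member lists were germ-line, mitotic, transcription and splicing, other cyclins, other CDKs and CDK inhibitors, and CDK3, which was in none of them, was put with other CDKs. CCNB1, CDK4, CDK7, CCNP and CDKN2A were not analysed here. The values of 1 tested member are not reported here, although the counts include it. Values in each library were given for the germ-line and mitotic members and for the 5 other members that changed most each way, and per pathway list the 2 called genes with the largest change in each direction were named. Marker lists covered Sertoli, Leydig, peritubular myoid and endothelial cells, macrophages, spermatogonia, spermatocytes, round and elongating spermatids. Alternatives were a pseudocount of 0.1, no filter, a mean FPKM of at least 5, TPM, median-of-ratios and Sertoli-centred scaling, limma-voom on the fragments, no trend, and leaving out each library.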

Additional observations from a re-analysis of the deposited data

How the results depend on the processing

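Scaling decided most of what changed. Of the members, 13 were called higher and 9 lower as deposited. Median-of-ratios scaling gave 6 higher, and Sertoli-centred scaling 0 higher (0 at an unadjusted p under 0.05, limma) and 48 lower. Called pathway genes, 22 higher and 19 lower, became 7 higher with median-of-ratios, and 1 higher and 61 lower with Sertoli centring. The germ-line median of -0.26 became -2.51 with Sertoli centring. The mitotic median of 0.44 became -0.024 with median-of-ratios, -1.81 with Sertoli centring, 0.58 with limma-voom, 0.57 with a pseudocount of 0.1 and 0.15 with a mean FPKM of at least 5, which left 9 mitotic members. Without a trend or a filter the calls of all 55 members were as before, and no other alternative reversed a member's direction besides those given here. Leaving out each library gave 12 to 15 members higher, 9 to 11 lower, germ-line medians of -0.33 to -0.21, mitotic medians of 0.29 (without Yak9) to 0.59 (without TES7), and differences of -0.82 to -0.55. The ratios ranged from -4.62 to -4.03 (CCNA1 to CCNA2), -0.80 to -0.46 (CCNE2 to CCNE1), -0.59 to -0.25 (CDK2 to CDK1), 1.15 to 1.79 (CDKN2D to CDKN2C) and -0.31 to 0.52 (CCND1 to CCND2), the last reversed to -0.31 without TES5. CDK10, at 0.02, turned to -0.09 without TES6 and -0.22 without Yak10 (highest 0.14 without Yak8), and Cdk8, at 0.04, to -0.10 without TES5 (highest 0.11 without TES6). The cause of these changes was not tested.

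With median-of-ratios scaling 12 members that were not called turned below 0, among them CCNE2 (-0.28), CCND2 (-0.11), CDK1 (-0.44), the low row of CCNC (-0.065), CCNT1 (-0.076), CDK10 (-0.57), CDK19 (-0.093), Cdk8 (-0.55), CCNI (-0.29), CDK17 (-0.34) and CDKN1C (-0.081). With Sertoli centring 36 turned, among them CCNB3 (-0.26), CCNE2 (-1.95), CDK16 (-1.30), CCNA2 (-1.40), CCND1 (-1.77), CCND2 (-1.85), CCND3 (-0.61), CCNE1 (-1.40), CCNF (-1.30), CDK1 (-2.10), Cdc25b (-1.10), both rows of CCNC (-2.10 and -1.21), CCNH (-1.65), CCNL1 (-1.60), CCNT1 (-1.73), CCNT2 (-1.23), CDK10 (-2.23), CDK12 (-1.61), CDK13 (-1.59), CDK19 (-1.74), CDK9 (-1.33), Ccnl2 (-1.12), Ccnq (-0.87), Cdk8 (-2.21), CCNG2 (-0.48), CCNI (-1.93), CCNI2 (-1.62), CCNJ (-1.25), CDK17 (-2.00), CDK3 (-1.15), Cdk20 (-1.42), Cdk5 (-0.23), CDKN1A (-1.12) and CDKN1C (-2.10). Sertoli centring shifted every log2 (foldchange) equally, so members of low FPKM, such as the low row of CCNC, CCNI2 and CDKN1C, moved as far as abundant ones. Their centred values are therefore no measure of a change in level. No paired analysis was possible because the labels name no pairing between cattle-yak and yak animals. At 8 to 9 fragments Cdk15 in cattle-yak was close to what this depth resolves.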

Other observations

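Activators of 3 member kinases, chosen after their values were seen, are given beside their kinase. CDK5R1, the activator of CDK5, measured 8.51 ± 0.574 (SD, n = 3) FPKM in cattle-yak against 41.2 ± 2.05 (SD, n = 3) in yak, with a log2 (foldchange) of -2.15 in limma and -2.73 with median-of-ratios scaling, while Cdk5 itself was called higher at 2.02. SPDYA, which binds and activates CDK2 in meiosis, measured 32.0 ± 14.7 against 109 ± 5.30 FPKM (-1.83), beside -0.26 for Cdk2. CCNYL1, the close relative of cyclin Y, measured 20.6 ± 4.39 against 71.0 ± 9.88 FPKM (-1.75), beside -2.75 for Ccny and 0.95 for CDK16. CDK5R1, SPDYA and CCNYL1 lay below 0 in each scaling, of which median-of-ratios and Sertoli centring lower every gene.

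Among all tested genes 33.4% were called higher and 20.8% lower, and the counts below are given beside these shares as a description. In the pathway annotation deposited with the values, 23 members carried the term Cell cycle, of which 22 were tested. Of these, CCNB3, CCND3, CDKN1A, CDKN1B and Cdc25b were called higher and CCNB2, CDKN2C, CDKN2D and Ccna1 lower. The p53 signaling pathway held 14 members, 13 of them tested, with CCND3, CCNG1, CCNG2 and CDKN1A called higher and CCNB2 lower. Of the other terms, Cellular senescence had 3 higher and 2 lower of 15 tested, FoxO signaling pathway 4 and 2 of 10, Progesterone-mediated oocyte maturation 2 and 2 of 9, and Oocyte meiosis had CCNB2 lower among 6.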
